A study of Rattus norvegicus with 4 samples.

Results

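Reads assigned to small RNA, ribosomal RNA (rRNA) and mitochondrial tRNA genes were examined in glomeruli of 4 male Wistar rats. Each had received Adriamycin (ADR) by intravenous injection; this drug, also named doxorubicin, injures podocytes, the cells that cover the glomerular capillaries. The genes were chosen by the biotype that the deposited table gives them, and 66 of its 13261 usable genes qualified. They comprised 36 miRNA, 12 snoRNA, 5 rRNA, 5 Mt_tRNA, 3 snRNA, 2 Mt_rRNA, 2 misc_RNA and 1 scaRNA gene, and none was of the biotype ribozyme. All 4 animals carried the same treatment label and form a single group, with no control animals analysed here, so no value below has a direction against untreated kidney. The day of harvest of these rats is not given in the labels. Nor do the labels say in words that each sample is a separate animal; the samples are called animals here and named replicates 1 to 4, and p-values measure only the spread between them. Libraries were made from polyadenylated RNA of glomeruli obtained by sieving, with strand kept, and the table has 1 value per gene and library. A lower limit on RNA integrity was applied before library preparation, per the labels, and integrity per sample was not analysed here.

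Most of these genes make RNA that is not expected in abundance in such libraries. Nuclear rRNA, transfer RNA, and the mature small nuclear and nucleolar RNAs lack a long poly(A) tail, and mature miRNAs are far shorter than the fragments that are sequenced. The primary transcripts of miRNAs, and the host transcripts whose introns release most snoRNAs, are usually capped and polyadenylated by RNA polymerase II. In mitochondria, mRNAs and rRNAs are cut from long precursors, often at the tRNAs that lie between them, and receive short A tails. Reads on a miRNA or snoRNA gene may thus come from a longer precursor, a host transcript or an overlapping transcript, and the table does not tell these apart. Because neither strand use in counting nor the treatment of reads with several matches is given in the sources used here, values of overlapping genes and of near-identical copies are uncertain.

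Mature sequences were available in RefSeq (build GRCr8) for 7 of the 11 miRNA genes whose symbols start with Mir. They are shown with the seed (bases 2 to 8, which pair with target mRNAs) in capitals, to show whether the listed genes share seeds.
Mir3064, rno-miR-3064-3p: uUUGCCACacugcaacaccuuaca
Mir3074, rno-miR-3074: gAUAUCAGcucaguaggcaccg
Mir22, rno-miR-22-5p: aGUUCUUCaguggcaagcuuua
Mir22, rno-miR-22-3p: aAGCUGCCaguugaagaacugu
Mir126a, rno-miR-126b: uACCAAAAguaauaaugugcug
Mir24-2, rno-miR-24-3p: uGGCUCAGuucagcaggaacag
Mir24-2, rno-miR-24-2-5p: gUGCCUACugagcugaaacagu
Mir568, rno-miR-568: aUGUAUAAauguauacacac
Mir27b, rno-miR-27b-3p: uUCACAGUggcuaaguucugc
Mir27b, rno-miR-27b-5p: aGAGCUUAgcugauuggugaacag
The 10 mature sequences carry 10 different seeds. The only mature sequence matched to Mir126a is named rno-miR-126b, and why the names differ was not examined. The run ucagcucaguaggcac of rno-miR-3074, 16 bases long, is the reverse complement of a run in rno-miR-24-2-5p. The genes Mir135a-1, Mir1893, Mir2861 and Mir5125 are given by name only.

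Library totals over the listed genes were 13566962 to 16207027 reads. The 66 genes together took 0.244% of reads in replicate 1, 0.419% in replicate 2, 0.443% in replicate 3 and 0.261% in replicate 4. The shares of replicates 2 and 3 were thus well above those of replicates 1 and 4, and none of the 95% Wilson intervals overlapped. Intervals cover counting error only, since PCR copies of a molecule cannot be recognised. One mitochondrial rRNA gene, AY172581.24, supplied 49.1% of these reads. The median gene of the set had 91.9 reads, averaged over animals, against 439 over all genes, and 35 of the 66 had a mean under 100 reads. No member had fewer than 8 reads in any library. No gene of the table had a mean under 16 reads, so its members are the better-covered genes of each class and not all annotated ones.

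The tissue label was checked with marker genes. All 7 podocyte markers were listed. Proximal tubule markers were present as well, with Slc34a1, a phosphate transporter of that segment, at 10.58 ± 0.32 log2 CPM (SD, n = 4). The summed podocyte markers took 0.97%, 0.549%, 0.724% and 0.873% of reads in replicates 1 to 4. The 5 proximal tubule markers took 0.442%, 0.326%, 0.221% and 0.373%. In the summed mitochondrial mRNA, the shares were 7.46%, 12.5%, 9.34% and 7.56%. Over the 4 animals the other marker sums ran from 0.386% to 0.513% for glomerular endothelium, 0.165% to 0.208% for mesangium, 0.0474% to 0.0628% for distal nephron, 0.0658% to 0.0868% for leukocytes and 0.0929% to 0.17% for red cells. No listed marker was at 0 reads. These marker sums move with some of the results below, and their part in those results was not tested. In bulk tissue, fewer cells of a type and less RNA per cell cannot be told apart.

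**Figure D1:**
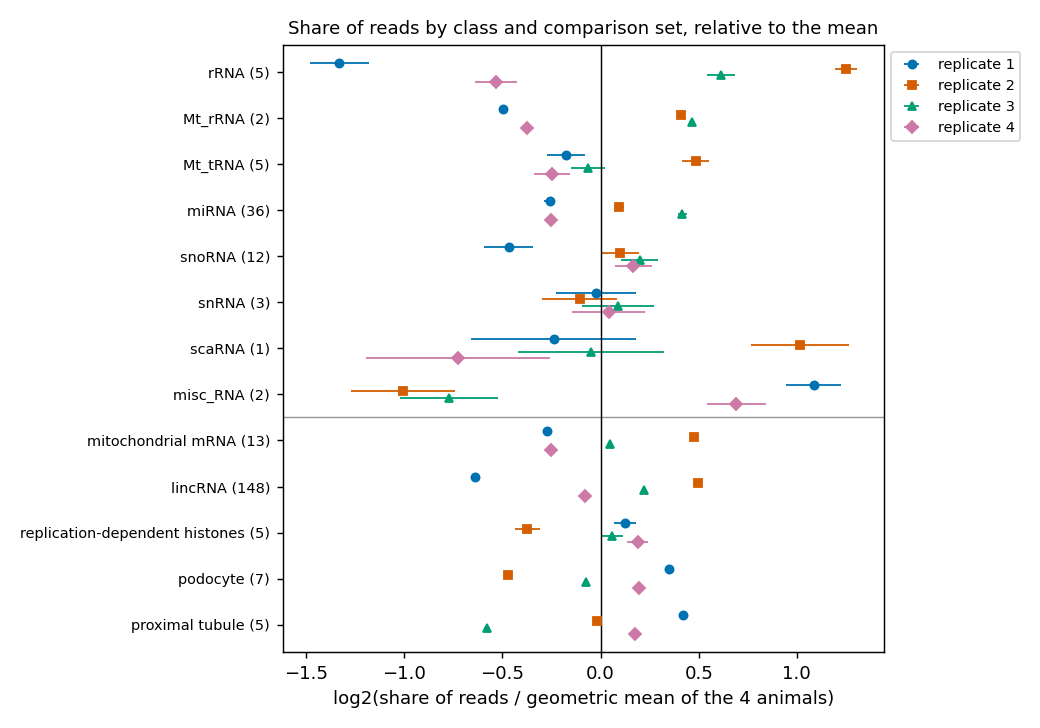
Share of reads taken by each class (number of genes in brackets) in each animal, as log2 of the share over the geometric mean of the 4 animals. Points are single animals and bars are 95% intervals for counting error. Above the line are the 8 classes and below it 5 comparison sets. The rRNA class spreads from replicate 1 to replicate 2 by a ratio of 5.99, and misc_RNA has the opposite order.

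The classes did not all rank the animals alike, though several came close. The 5 rRNA genes took 0.00265% of reads in replicate 1, 0.0159% in replicate 2, 0.0102% in replicate 3 and 0.00461% in replicate 4, so the falling order was 2, 3, 4, 1. The 2 Mt_rRNA genes took 0.159%, 0.298%, 0.31% and 0.173%, with the order 3, 2, 4, 1. The 36 miRNA genes had the same order as Mt_rRNA, at 0.0673%, 0.0861%, 0.107% and 0.0676%, although the intervals of replicates 4 and 1 overlapped. That shared order was not kept under every setting: with median-of-ratios scaling the miRNA order was 3, 2, 1, 4, and without its most abundant gene the Mt_rRNA order was 2, 3, 4, 1. In these 3 classes, and in Mt_tRNA and scaRNA, replicates 2 and 3 were the higher ones.

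For Mt_tRNA the shares were 0.00632%, 0.00997%, 0.00683% and 0.006% in replicates 1 to 4, and the interval of replicate 2 lay above those of the other three. The intervals of replicates 3 and 4 did not overlap either. The single scaRNA gene had the same order, at 0.000332%, 0.00079%, 0.000378% and 0.000236%, with only replicate 2 apart from the rest by its interval. The snoRNA class took 0.00374%, 0.00554%, 0.00594% and 0.00581%, with replicate 1 below and the other three within overlapping intervals. The snRNA class took 0.00144%, 0.00136%, 0.00155% and 0.0015%, and all neighbours in its order overlapped. The misc_RNA class ran the other way, at 0.00302%, 0.00071%, 0.000834% and 0.0023%, with the order 1, 4, 3, 2.

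Of the 28 pairs of classes, 2 had an identical order (miRNA with Mt_rRNA, and scaRNA with Mt_tRNA) and 1 pair, rRNA and misc_RNA, had exactly opposite orders. Counting the 2 identical ones, 9 of the 28 ordered at least 5 of the 6 pairs of animals alike, among them rRNA with miRNA, Mt_rRNA, Mt_tRNA and scaRNA. With 4 animals some pairs of classes would agree this far by chance, and the number expected was not computed. Some of these orders also rest on animals with overlapping intervals. Replicate 3 was highest in 4 classes, replicate 2 in 3 and replicate 1 in 1. Without replicate 2, replicate 3 was highest in 7 of the 8. Replicate 1 was lowest in 4 classes, replicates 2 and 4 in 2 each. The size of the spread also differed. The highest animal exceeded the lowest 5.99-fold in rRNA, 4.26-fold in misc_RNA, 3.34-fold in scaRNA, 1.95-fold in Mt_rRNA, 1.66-fold in Mt_tRNA, 1.6-fold in miRNA, 1.59-fold in snoRNA and 1.14-fold in snRNA. The rRNA ratio was 3.44 without replicate 1 and 3.85 without replicate 2, and the scaRNA ratio 1.6 without replicate 2. The misc_RNA ratio was 2.17 without its most abundant gene. With 4 animals no correlation between classes was computed.

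Other RNA gave further orders. The sums of mitochondrial mRNA and of long intergenic noncoding RNA had the order of rRNA, with spreads of 1.68-fold and 2.2-fold. However, a single gene held 57.9% of the latter's reads, and only 12 of its 148 genes had that order. Replicates 1 and 2 were each highest in 39 of the 148, whereas replicate 2 was highest in all 13 mitochondrial mRNA genes. Replication-dependent histone genes, whose mRNAs normally end in a stem-loop in place of a poly(A) tail, took 0.0179%, 0.0127%, 0.0171% and 0.0187% of reads in replicates 1 to 4. Only 5 such genes were listed and H1f2 supplied 81.9% of their reads, so the low sum of replicate 2 is mainly that of 1 gene. Replicate 2 was lowest in 1 of the 5. Podocyte markers had the order 1, 4, 3, 2, the reverse of that of rRNA and the same as that of misc_RNA.

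Gene by gene, the highest CPM (reads scaled to a common library total) was found in replicate 2 for 30 of the 66 members, in replicate 3 for 23, in replicate 1 for 8 and in replicate 4 for 5. Over all genes, the percentages were 21.4, 29.6, 27.7 and 21.4 in that order of replicates. The lowest CPM was found in replicate 1 for 33 members, in replicate 4 for 18, in replicate 2 for 9 and in replicate 3 for 6, against 35.1%, 13.8%, 31.5% and 19.6% of all genes. Members are not independent of each other, since some may share sequence or a transcript. The highest animal had at least 2 times the CPM of the lowest in 25 members, or 37.9%, against 9.15% of all genes. Counting error is larger in these genes because of their low reads.

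Variation beyond counting error (chi-square test on reads, Benjamini-Hochberg adjusted p under 0.05 over all genes) was found for 46 of the 66 members, or 69.7%, near the background of 69.5% over all genes. Limma's variance trend, which asks for more variance than other genes of similar level have, called 0 of 66 members and 0% of all genes. Its prior had 3.79 degrees of freedom, and its smallest adjusted p over all genes was 0.912. With so few degrees of freedom and adjustment over all genes, 0 calls do not show that genes were even between animals. At an unadjusted p under 0.05, limma passed 12 members, or 18.2%, against 5.47% of all genes. A Pearson statistic with the dispersion held at a trend over abundance called 19 members, or 28.8%, against 7.56% of all genes. It called 11 members without replicate 3 and 8 without replicate 4, where the background was 4.5% and 4.72%. The 19 were the 5 rRNA genes, 8 miRNA genes, 2 Mt_tRNA genes and 1 gene each of Mt_rRNA, snoRNA, scaRNA and misc_RNA. Only 7 of the 19, the 5 rRNA genes, SNORD29 and Gm27820, were called whichever animal was left out. The other 12 lost the call in 1 or more of these fits: the 8 miRNA genes without replicate 3 (all but AABR07063421.1 also without replicate 4), the Mt_tRNA genes and Scarna2 without replicate 2 and again without replicate 4, and AY172581.24 without replicate 1 and again without replicate 4.

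The rRNA class consists of 5 genes for 5.8S rRNA, which pairs with 28S rRNA in the large subunit of the cytosolic ribosome and is cut from the transcript made by RNA polymerase I. Rn5-8s (ENSRNOG00000059852) had 90, 645, 384 and 159 reads in replicates 1 to 4. The copy with the next most reads, 5_8S_rRNA copy 1 (ENSRNOG00000053888), had 89, 606, 374 and 175 reads. Replicate 1 was lowest and replicate 2 highest in each of the 5 genes, and the order 2, 3, 4, 1 was common to them.

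Copy 2 (ENSRNOG00000056172) had 85, 624, 364 and 164 reads, and copy 3 (ENSRNOG00000058725) had 66, 397, 260 and 128. Copy 4 (ENSRNOG00000051831) had the fewest, at 30, 302, 186 and 77. The CPM ratio of replicate 2 to replicate 1 lay between 5.04 and 8.43. Of the 5.8S reads, Rn5-8s held 25%, 25.1%, 24.5% and 22.6% in replicates 1 to 4, whereas copy 4 held 8.33%, 11.7%, 11.9% and 11%. Whether reads were shared or split between copies was not tested, so the 5 genes cannot be counted as 5 independent measurements. The fixed-trend test called each of the 5, with adjusted p from 3.37e-16 to 2.77e-09. It called each of them with any 1 animal left out. Limma gave unadjusted p from 0.00291 to 0.00648 and an adjusted p of 0.912.

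**Figure D2:**
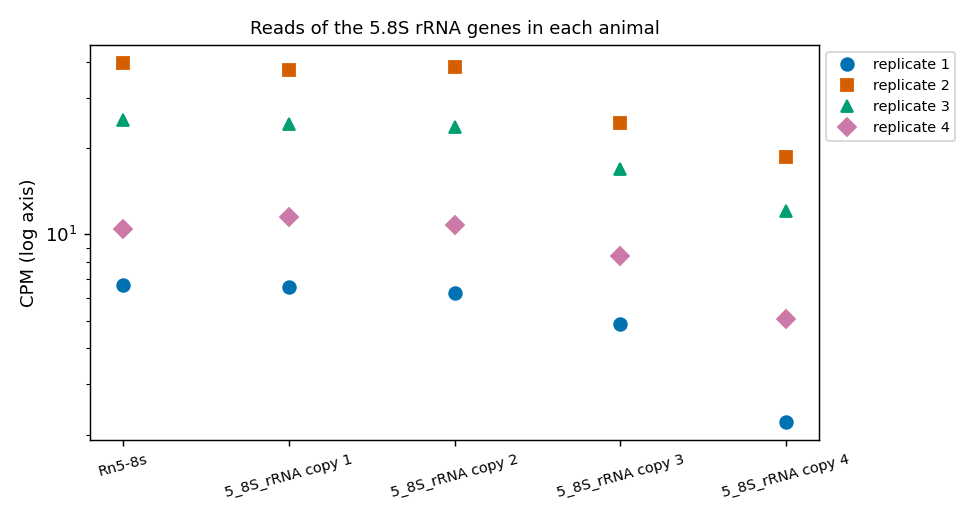
CPM of the 5 genes for 5.8S rRNA (log axis) in each animal; every point is 1 library. In all 5 genes replicate 2 is highest and replicate 1 lowest, by 5.04-fold to 8.43-fold.

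Both mitochondrial rRNA genes were listed; the table names them by accession-derived symbols and does not say which subunit of the mitochondrial ribosome each serves. AY172581.24 (ENSRNOG00000043866) had 15105, 34348, 34975 and 18286 reads in replicates 1 to 4. AY172581.9 (ENSRNOG00000030478) had 6469, 13999, 12602 and 8111. Replicates 2 and 3 lay above replicates 1 and 4 in both genes, but replicate 3 was highest in the first and replicate 2 in the second. The SDs were 0.54 and 0.43 on the log2 scale, against a median of 0.18 over all genes. The fixed-trend test called AY172581.24 (adjusted p = 0.009), but not without replicate 1 (0.0978) or replicate 4 (0.204), and did not call AY172581.9 (adjusted p = 0.0874).

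The 5 mitochondrial tRNA genes differed widely in reads, and AY172581.2 (ENSRNOG00000029145) held 86.9% of the class. It had 761, 1379, 899 and 811 reads in replicates 1 to 4. AY172581.18 had 36, 82, 55 and 45, and AY172581.10 had 32, 84, 46 and 39. Replicate 2 was highest in each of these 3 genes.

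AY172581.20 had 14, 45, 20 and 8 reads, again with replicate 2 on top. AY172581.11 had 14, 26, 28 and 12, and its differences did not exceed counting error (adjusted p = 0.0631, chi-square test on reads). The fixed-trend test called AY172581.2 (adjusted p = 0.0342) and AY172581.20 (adjusted p = 0.0238). Neither was called without replicate 2, where the adjusted p was 1 and 0.77, or without replicate 4, where it was 0.211 and 0.375. Which amino acids these tRNAs carry is not stated by the table.

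Because mitochondrial mRNA itself differed between animals, both classes were set against it. Mt_rRNA genes had 21.3, 23.8, 33.2 and 22.9 reads per 1000 mitochondrial mRNA reads in replicates 1 to 4, a mean of 25.3 ± 5.36 (SD, n = 4). Replicate 3 stood above the others, whose highest value was 23.8. The Mt_tRNA genes had 0.846, 0.795, 0.731 and 0.794 reads per 1000, a mean of 0.792 ± 0.0472. The ratio of highest to lowest animal fell from 1.66 in the share of all reads to 1.16 in this measure. That class value is mostly AY172581.2; the ratio per mitochondrial mRNA read was 3.19 for AY172581.20 and 1.88 for AY172581.11, both with few reads. In Mt_rRNA it went from 1.95 to 1.56. The Mt_tRNA intervals overlapped between all neighbouring animals, but that of replicate 1 lay above that of replicate 3. In Mt_rRNA the interval of replicate 3 lay above all others. The CPM ratio of AY172581.24 to AY172581.9 was 2.33, 2.45, 2.78 and 2.25.

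**Figure D3:**
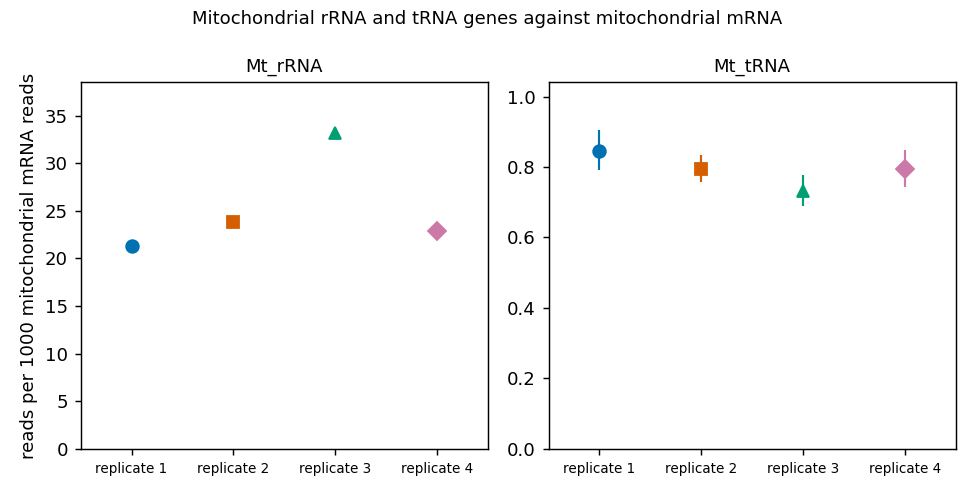
Reads on the Mt_rRNA (left) and Mt_tRNA (right) genes per 1000 reads on the 13 mitochondrial mRNA genes, with 95% intervals for counting error; each point is 1 animal and both axes start at 0. Replicate 3 is highest for Mt_rRNA, at 33.2, and lowest for Mt_tRNA, at 0.731.

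The miRNA class was the largest by number. Its genes fell by symbol into 11 of the Mir type, 16 named after genome contigs (AABR07), 7 named after clones (AC) and 2 with mouse-type symbols (Gm). This division was made after the values were seen, so it carries no test. Replicate 3 was highest in 14 of the 16 contig-named genes, but in 3 of the 11 Mir genes, 0 of the 7 clone-named genes and 1 of the 2 Gm genes. Over all genes, replicate 3 was highest in 29.6%. The contig-named genes took 0.0475%, 0.0595%, 0.0828% and 0.0452% of reads in replicates 1 to 4, most of the class share. The biotype is the table's own, and whether these are true miRNA genes or pieces of repeats or of other RNA was not tested. Among the cell type markers, all 4 of red cells and all 4 of glomerular endothelium were highest in replicate 3 too. The red cell sums were 0.0929%, 0.117%, 0.17% and 0.118%, and those of endothelium 0.386%, 0.413%, 0.513% and 0.417%, and their part in this was not tested.

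AABR07063462.1 (ENSRNOG00000055154) had the most reads, 1355, 1963, 2732 and 1373 in replicates 1 to 4. AABR07063425.1 (ENSRNOG00000046707) had 1286, 1930, 2587 and 1466 reads. AABR07015079.1 (ENSRNOG00000046081) had 735, 1143, 1527 and 729 reads. In these genes replicate 3 was highest, replicate 2 next, and replicates 1 and 4 close together. The other miRNA gene among the 4 with the most reads, Gm25994 (ENSRNOG00000045884), had 1090, 1993, 1716 and 1594 reads, with replicate 2 highest and replicate 1 lowest.

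All 8 miRNA genes that the fixed-trend test called were contig-named. For those in the naming rule the adjusted p was 0.000319 (AABR07063462.1), 0.00279 (AABR07063425.1) and 4.88e-05 (AABR07015079.1), while limma gave an adjusted p of 0.912. Without replicate 3, adjusted p was 0.585, 0.75 and 0.416 for these genes, and none of the 8 was called. The contig symbols mark where the reference sequence came from and say nothing of the product. On contig AABR07015081, the miRNA gene AABR07015081.1 had 316, 351, 502 and 257 reads and the protein-coding gene AABR07015081.2 had 852, 1133, 1574 and 919. Replicate 3 was highest and replicate 4 lowest in both. The same held for AABR07019083.2, a miRNA gene with 35, 47, 58 and 38 reads, and the pseudogene AABR07019083.1, with 437, 478, 547 and 435. The clone-named miRNA gene AC128792.1 had 82, 94, 53 and 80 reads and the pseudogene AC128792.2 had 1029, 832, 715 and 939, both highest in replicate 1 and lowest in replicate 3 by CPM. The miRNA genes AABR07063425.1 and AABR07063425.2, the latter with 156, 181, 285 and 175 reads, were both highest in replicate 3, but the lowest animal was replicate 1 for the first and replicate 2 for the second.

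**Figure D4:**
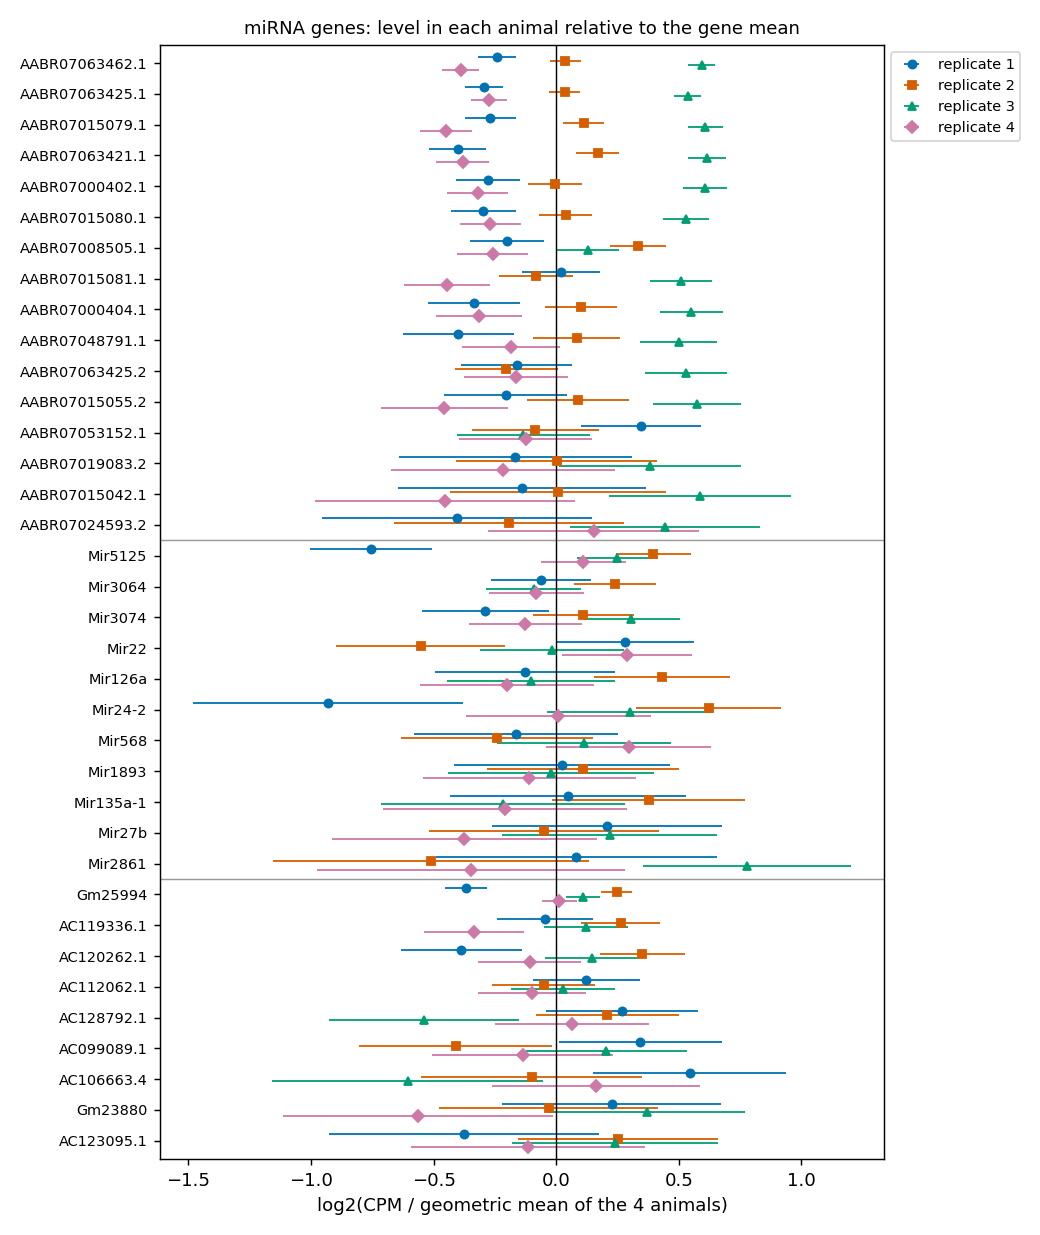
CPM of each of the 36 miRNA genes in each animal, as log2 over the gene's geometric mean; bars are 95% intervals for counting error. The lines separate 16 contig-named genes, 11 Mir genes and 9 others. Replicate 3 is highest in 14 of the contig-named genes and in 3 of the Mir genes.

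Among the 11 Mir genes 0 were called by the fixed-trend test, against 7.56% of all genes, and 7, or 63.6%, varied beyond counting error, against 69.5% of all genes. Mir5125 (ENSRNOG00000049077) had 130, 345, 295 and 266 reads in replicates 1 to 4, the most of any Mir gene, with replicate 1 below the other three. Mir24-2 (ENSRNOG00000035501), from a cluster with Mir23a and Mir27a, had 26, 91, 69 and 56 and the largest SD of the class, 0.66 on the log2 scale. In both genes the order was 2, 3, 4, 1.

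Mir22 (ENSRNOG00000035620), whose primary transcript is a spliced noncoding RNA, had 100, 67, 92 and 113 reads, so replicate 2 was lowest. Mir2861 (ENSRNOG00000049532) had 24, 19, 44 and 20, with replicate 3 highest. Mir27b (ENSRNOG00000035576), with 36, 36, 41 and 27 reads, did not differ between animals beyond counting error (adjusted p = 0.362, chi-square test on reads). Mir1893 had 41, 52, 45 and 42 reads and the smallest SD of the class, 0.09. AC112062.1 had 169, 179, 179 and 163 reads and was as even, with an SD of 0.10.

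For a few members an enclosing gene could be found in RefSeq (GRCr8) and in the table. Mir3064 lies within Ddx5, on the same strand; Ddx5 encodes an RNA helicase that assists Drosha. Mir3064 had 192, 283, 213 and 213 reads, and Ddx5 had 15061, 18933, 19826 and 17247. The log2 difference between them was -6.31 ± 0.20 (SD, n = 4), and the highest animal was replicate 2 for Mir3064 and replicate 3 for Ddx5.

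Mir126a lies within Egfl7, the endothelial gene that hosts the miR-126 hairpin, and RefSeq places this entry on the opposite strand. Mir126a had 59, 104, 68 and 63 reads and Egfl7 had 4865, 10339, 7679 and 5711. Replicate 2 was highest in both, and the log2 difference was -6.57 ± 0.19. Mir568 lies within Zbtb20, a transcriptional repressor gene, for which RefSeq strand was not used here. Mir568 had 46, 52, 63 and 71 reads, whereas Zbtb20 had 424, 836, 787 and 496. Here the orders differed, and the log2 difference was -3.40 ± 0.52. Mir27b and Mir3074 both lie within Aopep in RefSeq, on the same and on the opposite strand, and values of Aopep were not used here.

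Small nucleolar RNAs guide chemical modification of rRNA, those of the C/D type (SNORD) 2'-O-methylation and those of the H/ACA type (SNORA) pseudouridylation. Of the 12 snoRNA genes, 10 were lowest in replicate 1 by CPM, or 83.3%, against 35.1% of all genes; in 1 of these, SNORA62, replicates 1 and 3 were level, at 2.21 and 2.22 CPM. Replicate 1 was also lowest in 6 of the 9 listed snoRNA host genes, 7 of the 11 spliceosomal snRNP protein genes, 6 of the 10 RNase P and MRP protein genes and 4 of the 10 snoRNA-protein genes. It was lowest in 3 of the 6 genes of the 7SK particle and 6 of the 14 of mitochondrial RNA synthesis and processing. For miRNA processing it was 3 of 9, and for the signal recognition particle 0 of 4. The test of counting error called 5 of the 12, or 41.7%, against 69.5% of all genes. SNORD29 (ENSRNOG00000058132) stood out from the rest, with 36, 81, 239 and 207 reads in replicates 1 to 4. Replicates 3 and 4 were far above replicates 1 and 2, and the highest CPM was 5.87 times the lowest. The fixed-trend test called it alone of the class (adjusted p = 4.80e-07), also with any 1 animal left out, while limma gave an unadjusted p of 0.00627 and an adjusted p of 0.912.

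Gm23212 had 75, 125, 100 and 88 reads, SNORD22 had 63, 122, 83 and 95, and Snord78, an intronic snoRNA of Gas5, had 49, 88, 75 and 63. In each replicate 1 was lowest and replicate 2 highest. The same lowest animal was found in Gm24336 (21, 59, 61 and 45 reads), AABR07002875.1 (23, 76, 44 and 41) and Gm24494 (23, 51, 46 and 59). SNORA62 had 30, 47, 34 and 41 reads, with replicates 1 and 3 level at the bottom. SNORD24, from an intron of Rpl7a, was even, with 55, 57, 55 and 66 reads and an SD of 0.14 on the log2 scale. SNORD24 and SNORA73 were the genes of the class whose lowest animal was replicate 2. SNORA73 had 56, 41, 49 and 58 reads.

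Small Cajal body RNAs guide the modification of spliceosomal RNA. Scarna2 (ENSRNOG00000051850) had 45, 128, 58 and 36 reads in replicates 1 to 4, with replicate 2 well above the other three. It was called by the fixed-trend test (adjusted p = 0.0146), but not without replicate 2 (0.947) or replicate 4 (0.148), and limma gave an unadjusted p of 0.0614. The snRNA genes encode RNAs of the spliceosome. U2 (ENSRNOG00000054047), which pairs with the intron branch site, had 162, 161, 175 and 182 reads and did not vary beyond counting error (adjusted p = 0.334, chi-square test on reads). U6 copy 1 (ENSRNOG00000060360) had 20, 26, 42 and 29 reads, and U6 copy 2 (ENSRNOG00000056868) had 13, 33, 21 and 18. Neither varied beyond counting error, with adjusted p of 0.0788 and 0.0935 in the same test. U6 is made by RNA polymerase III and has many near-copies in rodent genomes, so its counts are uncertain.

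The order of the misc_RNA class rested on 1 gene, which held 85.9% of its reads. That gene, Gm27820 (ENSRNOG00000060013), had 376, 82, 103 and 297 reads in replicates 1 to 4, high in replicates 1 and 4 and low in replicates 2 and 3. Its highest CPM was 5.48 times the lowest, and the fixed-trend test called it (adjusted p = 3.15e-14), also with any 1 animal left out, with an unadjusted p of 0.00394 in limma. The summed markers of podocytes and of proximal tubule were highest in replicates 1 and 4 too, and the part of either in this was not tested. The 7SK gene (ENSRNOG00000058789), whose RNA holds the elongation factor P-TEFb inactive, had 34, 33, 25 and 54 reads. Replicate 4 was highest there, and the fixed-trend test did not call it (adjusted p = 0.655).

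**Figure D5:**
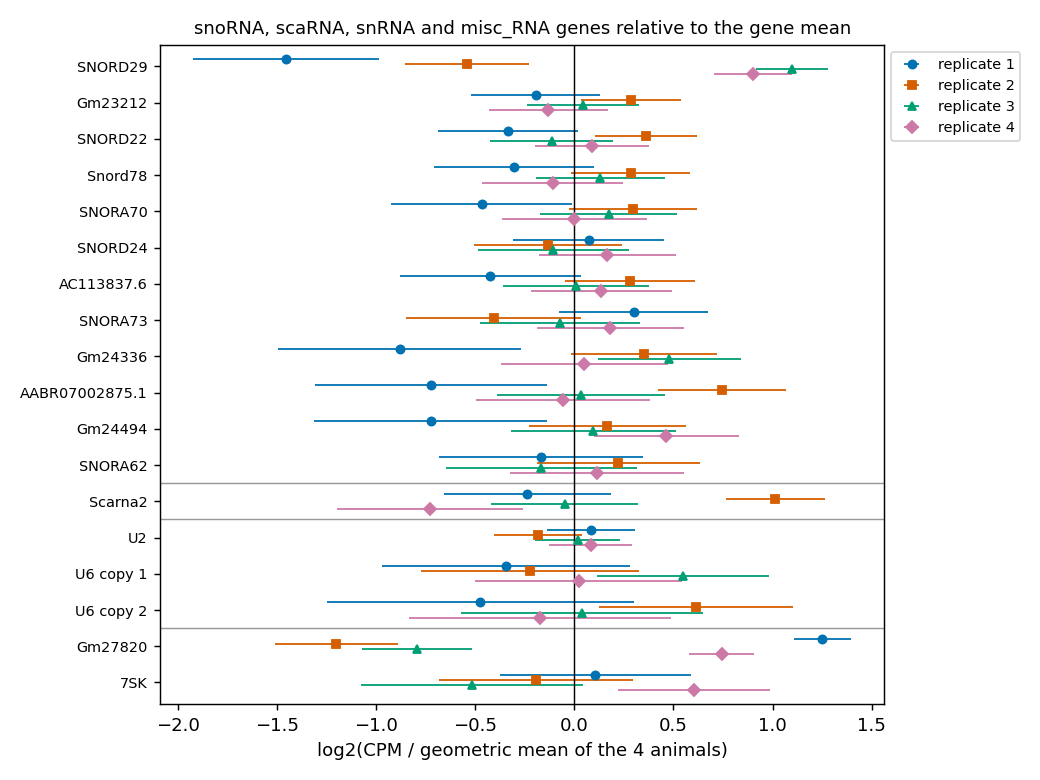
CPM of the snoRNA, scaRNA, snRNA and misc_RNA genes in each animal, as log2 over the gene's geometric mean; bars are 95% intervals for counting error. SNORD29 separates replicates 3 and 4 from replicates 1 and 2, and Gm27820 separates replicates 1 and 4 from replicates 2 and 3.

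Lists of genes for the proteins that make, bind or process these RNAs were examined beside them. The fixed-trend test called 0 of the 10 snoRNA-protein genes (Fbl, Nop56, Dkc1 and others), 0 of the 10 RNase P and MRP protein genes, 0 of the 6 genes of the 7SK particle and 0 of the 4 of the signal recognition particle, against 7.56% of all genes. It also called 0 of the 11 spliceosomal snRNP protein genes, 0 of the 9 miRNA processing genes, 0 of the 14 genes of mitochondrial RNA synthesis and processing and 0 of the 9 snoRNA host genes. These numbers are the genes with a usable row: 9 of 19 snoRNA host genes sought, with Gas5 and the Snhg genes not analysed here, 4 of 6 for the signal recognition particle and 11 of 12 for snRNP proteins. The test of counting error called 7, 4, 4, 2, 5, 5, 7 and 9 of these lists in the same order, against 69.5% of all genes, and limma called 0 in each. Their median SDs ran from 0.10 for miRNA processing to 0.20 for RNase P and MRP, against 0.39 for the 66 members and 0.18 for all genes. In single libraries these genes had from 16 reads (7SK particle) to 19826 (miRNA processing), and the effect of read number on the SD was not tested.

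Among the snoRNA-protein genes Dkc1, the pseudouridine synthase of H/ACA particles, had the largest value at 7.21 ± 0.31 log2 CPM (SD, n = 4), and Gar1 the smallest at 3.62 ± 0.22. Among the miRNA processing genes Ddx5 was at 10.20 ± 0.10 and Ago2, the slicing Argonaute, at 3.59 ± 0.13 log2 CPM. Lrpprc, which stabilises mitochondrial mRNA, was at 6.38 ± 0.14, and its partner Slirp at 2.82 ± 0.27 log2 CPM. Hexim1, the P-TEFb inhibitor that binds 7SK RNA, was at 6.56 ± 0.11 and Mepce, which caps that RNA, at 0.73 ± 0.49 log2 CPM. CPM takes no account of how long a transcript is, so these values serve to compare animals.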

How the data were processed

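The deposited table holds log2 values for 4 libraries, 1 column each, matched to samples by title. The submitters' processing notes name HISAT2, featureCounts, Subread, limma and the build Rnor_6.0, without versions or settings. From the values, the deposited log2 values are log2 CPM with 0.5 reads added: 2 raised to each was a whole number of reads (within 0.01) plus 0.5, times a constant of the library, for 100% of genes. In 4 of 13265 rows the values were displaced, and these were left out; 0 value columns belonged to no sample.

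Reads per gene were tested against Poisson sampling (chi-square), and log2(CPM + 1) in an intercept-only limma 3.58.1 fit (R 4.3.3) by the F test of residual variance against the trend. The fixed-trend test is a Pearson statistic with dispersion set in 40 bins of mean reads. P-values were Benjamini-Hochberg adjusted over 13261 genes, threshold 0.05. All were tested on simulated data. All used the recovered reads. Enclosing genes come from RefSeq GRCr8, where 12 of 66 members matched by symbol, and no coordinates are given.

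Every Mt_rRNA, Mt_tRNA, rRNA and scaRNA gene is named; of the other classes, the 4 genes with the highest and the 2 with the lowest mean CPM, the 3 with the largest and the 3 with the smallest SD, and the 7SK gene; of other lists, the highest and lowest gene among those given, some genes that the rule selects not being reported here. SNORA73, the genes with enclosing or contig neighbours, Mir22 and the genes of the closing section were added after their values were seen. Of 4 nuclear-retained long RNAs sought, 0 were used. The members and lists were chosen with earlier results of these data known. Alternatives were leaving out each library, other scalings, pseudocounts, a read minimum, a robust prior and classes without their top gene.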

Additional observations from a re-analysis of the deposited data

Results flagged for a closer look

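Of 74 values examined (66 genes and 8 class shares), 4 had 1 animal set apart from the other three by the gap to its neighbour over the whole range, where chance gives 3.7. Mir3064 was set apart by a high replicate 2 (0.913), with 283 reads against 192 to 213. Mir126a was set apart by a high replicate 2 (0.842), with 104 reads against 59 to 68. AABR07063425.2 was set apart by a high replicate 3 (0.942), with 285 reads against 156 to 181. AABR07053152.1 was set apart by a high replicate 1 (0.898), with 133 reads against 108 to 118. None of the 4 was called by the fixed-trend test.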

How the results depend on the processing

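Of 418 recomputed values, 397 stayed within the spread between animals, or for numbers and ratios within 1.5 times, and 21 moved. Changes of sign were not examined, and the mean log2 level of AY172581.20 went from 0.29 to -0.11 without replicate 2. Of the 397, 224 are levels of single genes. By this rule, levels and shares with 1 animal left out could not move. Nor could levels under median-of-ratios scaling, so that these stayed says nothing of stability. Limma called 0 genes under each alternative run, but with its few degrees of freedom this does not show that the outcome is stable. Genes called at the fixed trend, 1002 with all animals, ranged from 597 to 710 when 1 was left out, and members called, 19 with all, from 8 to 19. The largest number of classes sharing a highest animal, 4 with all animals, ranged from 4 to 7 when 1 was left out and was 3 with a mean of at least 50 reads required. Without its most abundant gene, Mt_rRNA took 0.0673% of reads, Mt_tRNA 0.000956%, misc_RNA 0.000243% and snRNA 0.000332%; scaRNA has a single gene and gave no value. With a mean of at least 50 reads required, snRNA took 0.00113% and snoRNA 0.00411%, and with mitochondrial genes out of the total snRNA took 0.00161%; removal of genes or a smaller total accounts for these by construction. The order of the animals was kept in 7 of 8 classes under median-of-ratios scaling, in 6 with mitochondrial genes out of the total, in 7 with the read minimum and in 3 of 7 without the top gene. The misc_RNA order was then 4, 1, 2, 3 and the snoRNA order 2, 4, 3, 1. Depth limits the snRNA and scaRNA classes and the genes under 100 reads. No paired analysis was possible because there is a single group.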
